A study of Mus musculus with 4 samples.

Results

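Fibro/adipogenic progenitors (FAPs) of dystrophic mice carried 17768 accessible regions that were called in 3 libraries and absent from the list of the young control library alone. They were chosen by the calls themselves. Regions of the 4 library lists that touched or overlapped were merged, which gave 163967 autosomal regions. A merged region was kept when it held a call of young TSA and of both old libraries and none of young control. The absence of a young control call, and the presence of the other calls, are therefore the selection and not a result. They are called the young-control-lacking regions below.

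FAPs, mesenchymal cells of the muscle interstitium, support repair by muscle stem cells and can themselves turn into fibroblasts or adipocytes. Histone deacetylases remove acetyl groups from histones, which generally goes with closed chromatin and low transcription. Their inhibitor trichostatin A (TSA) raises histone acetylation, and such inhibitors are known to counter fibrosis and fat deposition in dystrophic muscle of young mice more than of old mice. NA-seq reports accessibility by cutting the DNA of intact nuclei with a restriction enzyme, so open chromatin is found only where the enzyme has a site.

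The study asked how TSA alters the accessible chromatin of FAPs at different ages. All cells came from hind limb muscles of C57BL/6 mdx mice, which lack dystrophin, and were sorted for Sca-1 on the surface and against CD45, Ter119, CD31 and α7 integrin, the markers of blood, endothelial and satellite cells. Young and old mice each gave 1 control and 1 TSA library. TSA was given for 15 days at 0.5 mg per kg per day by intraperitoneal injection and the controls received saline by the protocol, although their treatment label reads none. The ages behind young and old, and any pooling of animals, were not stated in the labels. With 1 library per group no difference between libraries has a replicate error or a test, and the age, the treatment and the library itself cannot be told apart. The deposited lists hold positions only, so the depth is unknown and a region without a call is not shown to be closed. Intervals in parentheses are 95% exact binomial (Clopper-Pearson) intervals, which count each region as independent and reflect counting error alone. Positions are of the mouse build mm9 and count from 1. The genes and the sequence at these positions, and the marker genes of FAPs, are not analysed here.

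Young control stood apart from the other libraries in how many shared regions it lacked. Of the 32436 autosomal regions called in the other 3 libraries, it lacked the 17768, or 54.8% (54.2 to 55.3%). Young TSA lacked 2214 of the 16882 regions called in its 3 counterparts, or 13.1% (12.6 to 13.6%). Old control lacked 3303 of 17971, or 18.4% (17.8 to 18.95%), and old TSA 2818 of 17486, or 16.1% (15.6 to 16.7%). The lists were of unequal length, with 43335 regions in young control, 80122 in young TSA, 97139 in old control and 87416 in old TSA. A short list lacks more regions by itself. With each list limited to its widest regions, so that 43335 to 47136 regions remained in each, young control lacked 45.1% of the shared regions and the other libraries 14.4 to 24.0%. The young control list had to keep its narrow regions for this, while the other lists lost theirs.

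**Figure D1:**
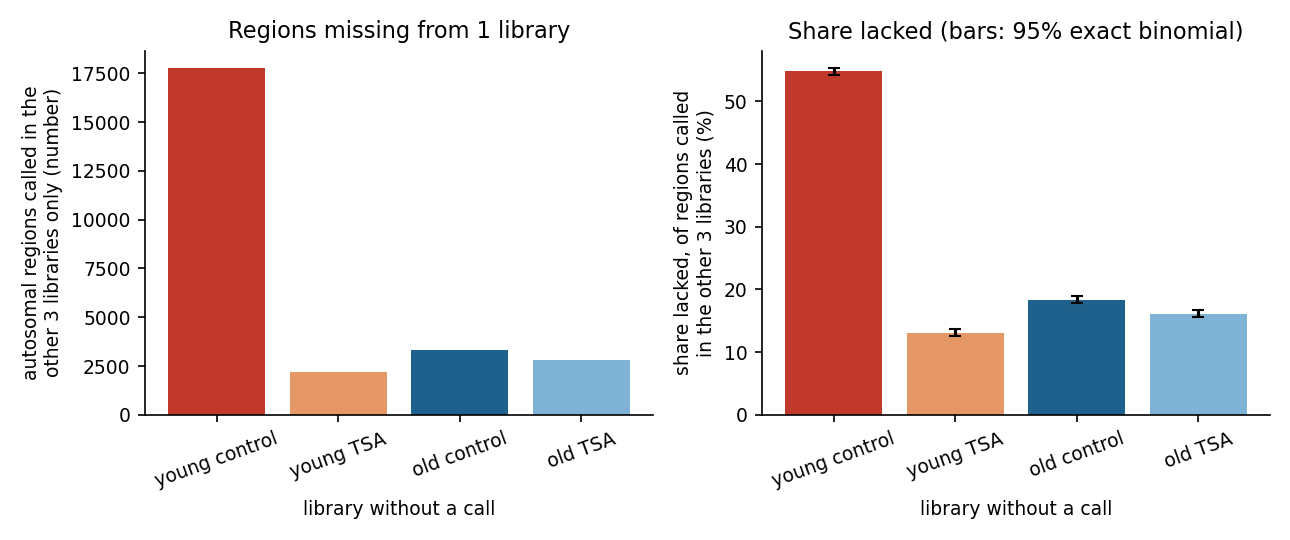
The left panel plots the number of autosomal regions called in the other 3 libraries and missing from the library named on the x axis, and the right panel the same as a share in percent, with 95% exact binomial intervals. Young control lacks 17768 regions (54.8%) and the other libraries 2214 to 3303 (13.1 to 18.4%).

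The calls of the young libraries were related to each other at places that were accessible in both old libraries. Among the 46566 autosomal regions with a call in old control and old TSA, young control had a call in 36.3% and young TSA in 69.7%. Where young control had a call, young TSA had one as well in 86.9% of the regions (86.4 to 87.4%). Where young control had none, young TSA still had a call in 59.9% (59.3 to 60.4%), and these are the 17768. The remaining 11916 regions were called in both old libraries and in neither young library. From the side of young TSA, 53528 of its merged regions lacked a young control call, and 33.2% of them were called in both old libraries.

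The young-control-lacking regions held a similar number of calls of each of the 3 libraries, which follows from the rule, as it required a call of each. They contained 18258 young TSA calls, 18230 old control calls and 18253 old TSA calls, which are 23.0%, 19.2% and 21.3% of the autosomal calls of these libraries. Together they spanned 42.8 Mb, close to the 42.3 Mb of the 14668 regions called in all 4 libraries. Their median width was 2000 bp, with quartiles of 1900 and 2700 bp and a range of 1000 to 11300 bp. Regions called in all 4 libraries had a median of 2500 bp (quartiles 2000 and 3400 bp). Those missing from young TSA, old control or old TSA alone each had a median of 1900 bp. A width of exactly 1900 bp, the most frequent width in every library list, was found for 6252 of the 17768 regions (35.2%) and for 22.0% of the regions called in all 4 libraries.

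The calls of the 3 libraries inside a region mostly lay on top of each other. The merging joined only calls that touched or overlapped, so much of this is set by the selection. A stretch common to all 3 was not itself required. In 16670 regions (93.8%) each of the 3 libraries had 1 call. A stretch called in all 3 was present in 97.8% of these (97.6 to 98.1%). This common stretch had a median of 1500 bp (quartiles 1100 and 1900 bp) and a median of 68.4% of the merged width. Start and end were identical in all 3 libraries for 2415 regions, or 14.5% (14.0 to 15.0%), and 87.7% of these were 1900 bp wide. The old control call alone was the widest in 25.3% of the regions, the old TSA call in 19.5% and the young TSA call in 17.1%. Summed per region, the called length had a mean of 1987 bp in old control, 1942 bp in old TSA and 1904 bp in young TSA, and a median of 1900 bp in each.

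The edges of the young TSA calls matched those of the old libraries about as often as the old libraries matched each other. Identical start and end were found for 25.0% of the pairs of young TSA and old control, 26.0% of young TSA and old TSA, and 25.7% of old control and old TSA. The median sequence shared by a pair, of the sequence covered by either call, was 80.0%, 82.6% and 82.1% in the same order. The pair of old libraries thus did not match more closely than the pair of TSA libraries. Regions called in all 4 libraries show how young control calls behaved where they existed. Among 12644 such regions with 1 call per library, the pairs with young control had identical edges in 18.2 to 20.5% and shared a median of 73.7 to 76.0% of their sequence. The pairs without young control had identical edges in 27.7 to 30.1% and shared 84.2 to 86.4%. Young control calls were also narrower over the whole list, with a median width of 1500 bp against 1800 bp in each other library.

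The selection required only that no young control call touched or overlapped the merged region, and young control calls seldom lay just outside it. A young control call stood exactly 100 bp away, which is the step of the deposited coordinates, for 72 of the regions (0.405%), and within 500 bp for 437 (2.46%). Just beyond the limit, 20 of the 14668 regions called in all 4 libraries held a young control call that only touched the other calls. In a further 126 the young control call shared 100 to 500 bp with them. Partial cover was more frequent, as young control calls covered under 50% of the merged region in 3278 of the 14668 (22.3%).

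Most of the young-control-lacking regions lay kilobases from the nearest young control call. The median distance was 12.9 kb, with quartiles of 4.8 and 31.6 kb. A young control call lay within 1 kb of 5.72% (5.38 to 6.07%), within 5 kb of 26.0% (25.3 to 26.6%) and within 50 kb of 84.8% (84.2 to 85.3%). The regions missing from another library alone lay nearer to a call of that library. The median distances were 7.10 kb for young TSA, 5.90 kb for old TSA and 4.80 kb for old control. The order of these medians is the reverse of the order of list lengths given above, and the part of list length in it was not tested. With called regions of 1900 bp or wider only, 11.1% of the young-control-lacking regions had a young control call of that width within 5 kb. With a call counted only at a coverage of at least 50%, 34.2% had a young control call inside the region or within 5 kb.

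**Figure D2:**
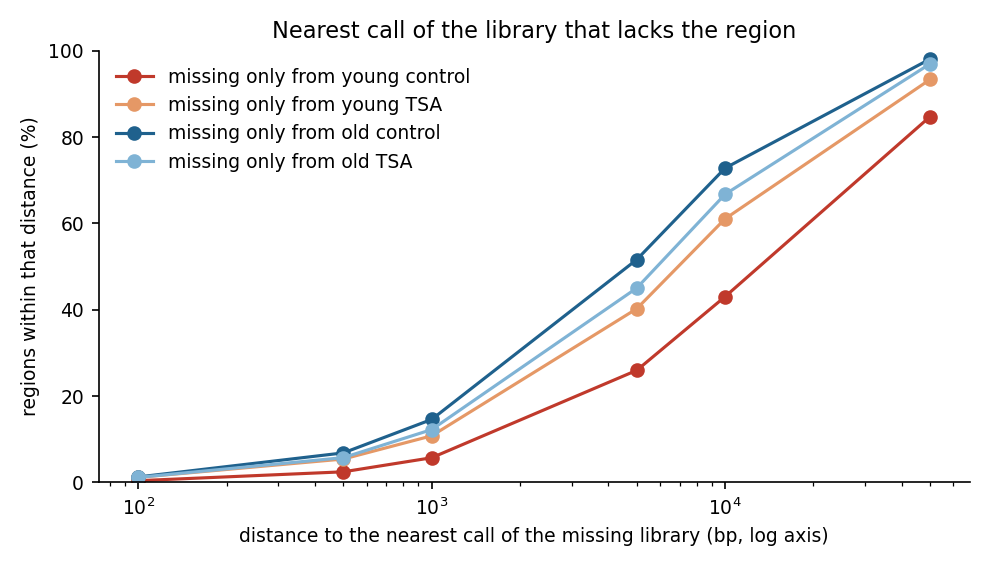
The x axis gives the distance in bp, on a log scale, to the nearest call of the library that lacks the region, and the y axis the percentage of regions within that distance, for regions missing from 1 library only. The curve for young control lies lowest at each plotted distance, at 26.0% within 5 kb, where the others lie at 40.2 to 51.6%.

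The authors deposited 2 differential lists for the young libraries. The list of 8362 regions deposited with young TSA was read as higher with TSA (young gained). The list of 468 deposited with young control was read as higher in the control (young lost). The labels do not state the direction. Of the 17768 young-control-lacking regions, 3343 overlapped the young gained list, or 18.8% (18.2 to 19.4%), and none overlapped the young lost list. Over all autosomal merged regions the shares were 5.00% for young gained and 0.274% for young lost. The share of 18.8% was 29.9% with called regions of 1900 bp or wider only and 32.4% with lists of about equal length. The share over all merged regions was not computed for these settings, so the 5.00% is not their background. Both lists rest on the same contrast that chose the regions, so these values describe them and support nothing further. From the side of the young gained list, 3369 of its 8298 autosomal regions, or 40.6% (39.5 to 41.7%), lay in young-control-lacking regions. Another 2440, or 29.4%, lay in regions called in all 4 libraries.

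A missing young control call and a place in the young gained list did not coincide. The remaining 14425 young-control-lacking regions were not in the young gained list. In turn, 16.1% (15.5 to 16.7%) of the regions called in all 4 libraries, young control included, overlapped it. The share in the list also differed with the calls of the old libraries. Among regions with a young TSA call and no young control call, 4.87% were in the young gained list when neither old library had a call and 7.49% when 1 of them had. With both old calls the share was the 18.8% given above. Where young control also had a call, the shares were 1.64%, 3.86% and 16.1% in the same order. The median length of the young TSA calls moved in the same direction without a young control call, from 1300 to 1600 and 1900 bp.

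The comparison was repeated within classes of width. For single young TSA calls of 1900 bp and under 2000 bp, 1532 of 6700 young-control-lacking regions were in the young gained list, or 22.9% (21.9 to 23.9%). The share was 13.6% (12.5 to 14.7%) for regions called in young TSA alone and 8.48% (7.73 to 9.28%) for regions called in all 4 libraries. For calls of 2000 bp and under 2500 bp the shares were 46.5% (44.2 to 48.8%), 23.9% (18.6 to 29.9%) and 23.6% (21.9 to 25.3%). At 2500 bp and over they were 36.5%, 17.3% and 30.0%. Below 1500 bp few regions of any kind were listed, with 24 of 3798 young-control-lacking regions (0.632%, 0.405 to 0.939%) and 1.35% (1.14 to 1.59%) of those called in young TSA alone. From 1500 to under 1900 bp the shares were 4.10% and 4.44%, with intervals that overlapped. The young-control-lacking regions had the highest share of the 3 kinds at 1900 bp and above, but not below. The list rests on the young contrast that chose these regions, so this order describes them and supports nothing further.

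**Figure D3:**
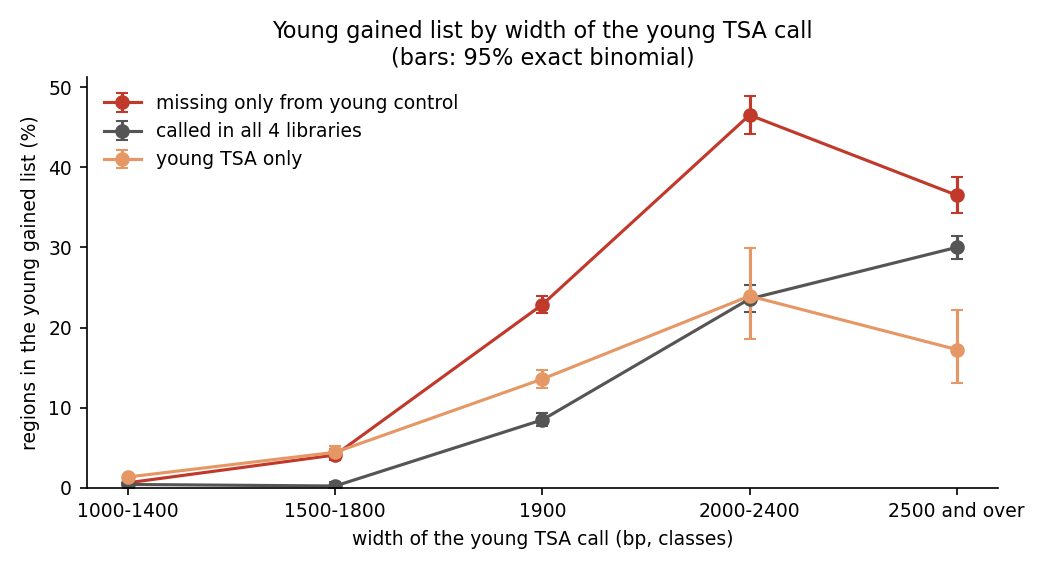
The x axis gives the width of a single young TSA call in classes of bp and the y axis the percentage of regions in the authors' young gained list, with 95% exact binomial intervals. Young-control-lacking regions go from 0.632% below 1500 bp to 46.5% at 2000 bp and under 2500 bp, above regions called in all 4 libraries (23.6%) and in young TSA alone (23.9%). The list rests on the contrast that chose the young-control-lacking regions.

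The authors' lists for the old mice, read in the same way, hold 3499 regions higher with TSA (old gained) and 4296 higher in the control (old lost). The rule did not use these lists, although it required a call in both old libraries. The young-control-lacking regions overlapped old gained in 378 cases, or 2.13% (1.92 to 2.35%), against 2.10% of all autosomal merged regions. They overlapped old lost in 568 cases, or 3.20% (2.94 to 3.47%), against 2.56% of all. The first share was at the background and the second slightly above it. Among regions called in all 4 libraries the shares were 2.97% (2.70 to 3.26%) and 3.02% (2.75 to 3.31%). Regions called in both old libraries and in neither young library had lower shares, of 1.28% and 1.67%. The latter regions had a median width of 1900 bp against 2500 bp for those called in all 4, and the part of width in the difference was not tested. Of the 573 old lost regions inside young-control-lacking regions, 84.6% also overlapped an old TSA call. The corresponding share for the 379 old gained regions and old control calls was 79.4%. Old TSA calls covered 62.3% of the sequence of these old lost regions, and old control calls covered 41.6% of that of the old gained regions. The rule required a call of both old libraries in each region, so these values are in part set by the selection.

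**Figure D4:**
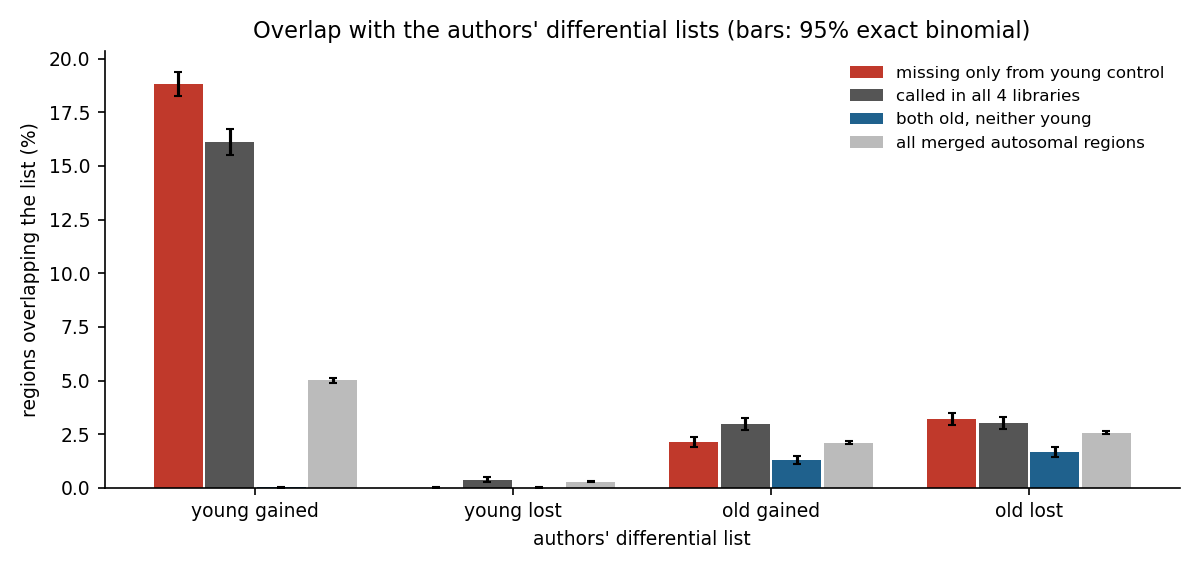
The y axis gives the percentage of regions that overlap each of the authors' 4 differential lists on the x axis, with 95% exact binomial intervals, for 4 sets of autosomal regions. Young-control-lacking regions reach 18.8% for young gained, against 16.1% for regions called in all 4 libraries, and 2.13% and 3.20% for old gained and old lost.

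Young-control-lacking regions in the young gained list were in the old lists more often than the others. Of the 3343, 196 overlapped old lost, or 5.86% (5.09 to 6.71%), against 372 of the 14425 others, or 2.58% (2.33 to 2.85%). Old gained was overlapped by 108, or 3.23% (2.66 to 3.89%), against 270, or 1.87% (1.66 to 2.11%). The listed regions were somewhat wider, with a median of 2200 bp against 2000 bp. Among regions of exactly 1900 bp, the shares for old lost were 3.15% (2.14 to 4.47%) of 951 listed and 0.811% (0.588 to 1.09%) of 5301 others. Those for old gained were 1.05% (0.505 to 1.93%) and 0.208% (0.104 to 0.371%), from 10 and 11 regions. Regions called in all 4 libraries had the same order, with old lost at 5.76% in the young gained list and 2.49% outside it. Old gained was at 5.72% and 2.45% there, so among the listed ones it was about as frequent as old lost. In all, 13803 of the young-control-lacking regions, or 77.7%, overlapped none of the 4 differential lists. The same share over all autosomal merged regions was not counted. Of all merged regions, 5.00% overlapped young gained, 0.274% young lost, 2.10% old gained and 2.56% old lost. Even if these did not overlap, more than 77.7% of all merged regions were in no list.

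The widest young-control-lacking regions were clusters of several calls. The widest, on chromosome 4 from 153649301 to 153660600, spanned 11300 bp and held 3 young TSA calls of 5900 bp in sum, 2 old control calls of 8200 bp and 3 old TSA calls of 6900 bp. It contained 1 young gained region of 1700 bp and 1 old lost region of 1000 bp, and young control had its nearest call 6.90 kb away. On chromosome 17 from 34977401 to 34987000, young TSA covered 7200 bp with 3 calls, while old control and old TSA each covered 3600 bp. Its young gained part was 1000 bp. The region on chromosome 5 from 139853001 to 139862100 was a single young TSA call of 9100 bp, where old control covered 5300 bp and old TSA 6000 bp. It was in none of the differential lists although young control had no call nearer than 3 kb.

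A further pair of wide regions overlapped both gained lists. Whether the parts from different lists coincided was not examined for any named region. On chromosome 17 from 56513601 to 56522500, old control covered 8000 bp, old TSA 6900 bp and young TSA 6200 bp, with 1000 bp in the young gained and 1400 bp in the old gained list. On chromosome 4 from 124646001 to 124654300, old TSA covered 7900 bp, young TSA 7300 bp and old control 6700 bp, with 1900 bp in the young gained and 1300 bp in the old gained list. In both regions the listed parts were short beside the accessible length, and the order of the libraries differed.

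The regions with the largest length in the young gained list, summed over its entries, each held a single young TSA call. The one on chromosome 10 from 74398101 to 74405100 was a young TSA call of 7000 bp that lay in the list over its whole length. Old TSA covered 5700 bp and old control 4400 bp of it, 1500 bp belonged to the old gained list, and the nearest young control call was 43.5 kb away. On chromosome 4 from 154139801 to 154147100, a young TSA call of 7300 bp had 4800 bp in the young gained list, in 2 entries, and old control covered 2600 bp against 5900 bp in old TSA. The region on chromosome 17 from 26453101 to 26458800 had 4500 bp in the young gained list. There the old libraries had calls as wide as young TSA, with 4600 bp in young TSA, 4700 bp in old control and 5500 bp in old TSA. On chromosome 10 from 80314901 to 80319700 the calls were 4600, 4200 and 3900 bp in the order of young TSA, old control, old TSA, with 4200 bp in the list. On chromosome 4 from 152635201 to 152640400 they were 5100, 4400 and 4900 bp, with 4100 bp in the young gained and 1300 bp in the old gained list, in 2 entries each. A young control call ended or began only 1.20 kb from this last region.

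The young-control-lacking regions that overlapped both the young gained and the old lost list included places where old TSA covered less than old control. On chromosome 11 from 117162901 to 117168700, young TSA covered 5800 bp, old control 4300 bp and old TSA 2800 bp, with 1400 bp in the young gained and 2600 bp in the old lost list. On chromosome 5 from 124670101 to 124675800 the lengths were 5400, 4500 and 1900 bp, with 3200 bp young gained and 1100 bp old lost. Young control had calls 0.7 and 1.5 kb away from these regions. The same combination of lists was found where the old libraries hardly differed in length. On chromosome 5 from 150926901 to 150932500, old control covered 4200 bp and old TSA 4600 bp, and on chromosome 7 from 129748101 to 129753700 the lengths were 5600 and 5500 bp. In these the old lost parts were 1300 and 1600 bp.

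The widest regions that overlapped both gained lists, outside those already named, lay on chromosomes 17 and 14. On chromosome 17 from 87788401 to 87794600, young TSA covered 1900 bp, old control 5300 bp and old TSA 4800 bp. Of this, 1800 bp were young gained and 1900 bp old gained. On chromosome 14 from 55560201 to 55565500 the lengths were 2000, 3000 and 4300 bp, with 1900 bp young gained and 1400 bp old gained. In these regions the old libraries were called over a longer stretch than young TSA.

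The widest regions with identical edges in all 3 libraries were each partly in the young gained list. They lay on chromosome 7 from 151921101 to 151925300 (4200 bp), on chromosome 12 from 111698101 to 111702000 (3900 bp) and on chromosome 2 from 178340701 to 178344500 (3800 bp). The gained parts were 3000, 1900 and 1600 bp, and none of these regions was in an old list. The nearest young control calls were 34.4, 20.5 and 10.7 kb away.

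The young-control-lacking regions were spread over every autosome in a nearly constant proportion. The share that young control lacked ranged from 49.0% on chromosome 19 (45.4 to 52.7%) to 56.8% on chromosome 16 (53.8 to 59.9%). Only for chromosome 19 and for chromosome 11, at 51.2% (48.9 to 53.5%), did the interval lie wholly below that of all autosomes together. Their number per Mb of called span varied more, from 5.60 on chromosome 14 to 9.49 on chromosome 7. Chromosomes with a high density included chromosome 5 at 9.12 and chromosome 8 at 8.86 per Mb.

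**Figure D5:**
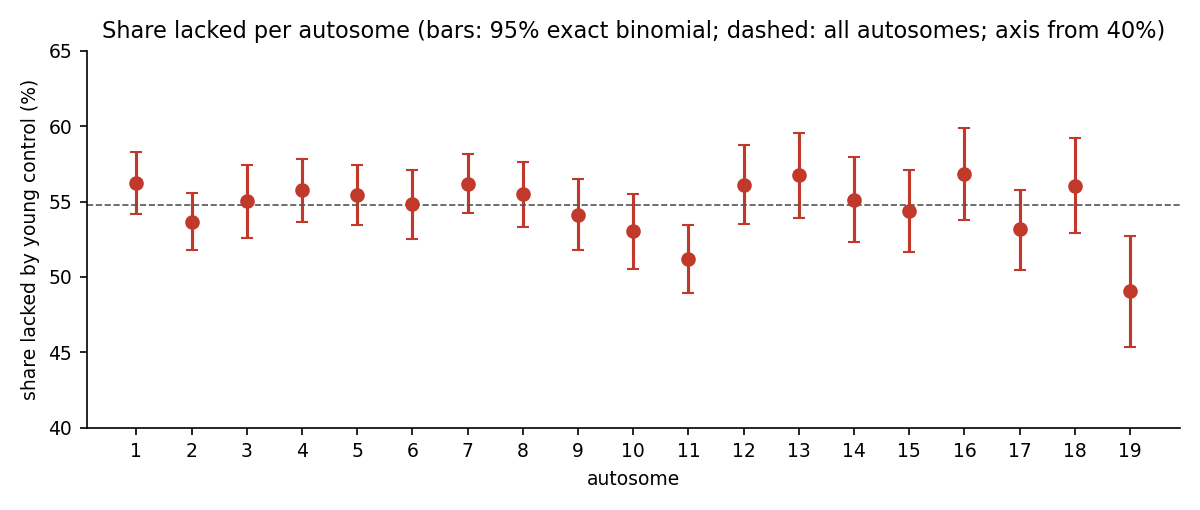
The y axis, which starts at 40%, gives the share of regions called in the other 3 libraries that young control lacks, per autosome, with 95% exact binomial intervals, and the dashed line gives the 54.8% of all autosomes. The shares lie between 49.0% on chromosome 19 and 56.8% on chromosome 16.

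A young-control-lacking region was followed by another of its kind somewhat more often than a region called in all 4 libraries was. In the order along a chromosome of the regions called in all libraries but young control or in all 4, the region after a young-control-lacking one was of the same kind in 57.6% of cases (56.9 to 58.4%). After a region called in all 4 libraries it was young-control-lacking in 51.3% (50.5 to 52.1%). Among neighbours at most 10 kb apart these shares were 54.0% (52.6 to 55.5%) and 47.4% (45.9 to 48.9%). Another young-control-lacking region lay within 10 kb of 26.3% of them and within 50 kb of 66.9%, and the median distance to the nearest was 27.0 kb. The longest unbroken series outside chromosome 18, singled out after its value was seen, held 25 young-control-lacking regions on chromosome 8 from 100958901 to 106388300. Young control had 21 calls elsewhere in that stretch, so the stretch was not without young control calls.

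At the scale of 1 Mb, a window held a median of 5 young-control-lacking regions (quartiles 3 and 10) over 2413 windows with any merged region. The window with the most, on chromosome 4 from 152 to 153 Mb, held 45 of them beside 11 regions called in all 4 libraries. Young control had 22 calls there, young TSA 84, old control 125 and old TSA 119, and 9 of the 45 were in the young gained list. The windows on chromosome 2 from 178 to 179 Mb and on chromosome 5 from 140 to 141 Mb each held 40, with 36 and 34 young control calls. In all 3 windows young control was thus called, at fewer places than each other library.

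Windows with no young control call at all were rare. There were 30 of them, and they held only 23 of the 17768 regions. Outside chromosome 18, the one with the most was on chromosome 5 from 79 to 80 Mb, with 5 young-control-lacking regions and 7, 16 and 18 calls of young TSA, old control and old TSA. None of these 5 was in the young gained list. The next were on chromosome 12 from 121 to 122 Mb and on chromosome 14 from 53 to 54 Mb, with 2 regions each. The single regions farthest from any young control call lay on chromosome 14 from 4413201 to 4415100, 1200.2 kb away, on chromosome 17 from 95148901 to 95150800, 1011.6 kb away, and on chromosome 5 from 79278501 to 79281300, 911.7 kb away. The first pair were called as exactly the same 1900 bp in all 3 libraries, and the last measured 2100 bp in young TSA and 2800 bp in each old library. None of the 3 was in a differential list.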

How the data were processed

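The submitters' processing notes name Bowtie 0.12.7 and the build mm9. The sources used here do not give how regions were called or how the differential lists were tested. As deposited by the authors, there are 4 library lists and 4 differential lists with a chromosome, a start and an end per region and no other value, so no depth could be stated. Per the labels' protocols, NlaIII or HpaII cut the nuclei, and Sau3AI the purified DNA. Which of the former a library had is not stated there. A differential list was read as higher in the library of its own sample, as the labels do not state the direction.

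The lists were analysed in Python 3.11.15 (pandas 2.3.3, numpy 2.4.6, scipy 1.17.1) and plotted with matplotlib 3.10.9. Touching or overlapping regions of the 4 libraries were merged. An overlap was at least 1 bp. The functions returned the known answer in 12 test cases, simulated or counted by brute force. Members, lists and comparisons were chosen with earlier results of these data known. Regions named in the text are, outside chromosome 18, the 5 widest, the 5 with the largest summed length in the young gained list, the 3 widest with identical calls, the 5 widest in both gained lists and in young gained and old lost, the 3 farthest from young control, and 3 windows each with the most of them, with and without young control calls. The alternatives were merging over 500 bp, a coverage of 50%, a margin of 1000 bp, regions of 1900 bp or wider, lists of about equal length and all chromosomes. Planned steps on genes, enzyme sites and sequence need an mm9 reference and were not run.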

Additional observations from a re-analysis of the deposited data

Results flagged for a closer look

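In the authors' lists the young-control-lacking regions differed in direction between the ages. The share in the gained list minus that in the lost list was 18.8 percentage points in young mice and -1.07 in old mice. Over all autosomal merged regions the same differences were 4.73 and -0.46, so the change of direction was that of the whole series. The young direction is fixed by how the regions were chosen. The difference was not tested, because 1 library per group allows no test.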

How the results depend on the processing

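Of the settings tried, those on width moved the values most. With called regions of 1900 bp or wider only, the number of young-control-lacking regions was 10138 and young control lacked 65.8% of the shared regions. Young TSA lacked 7.57%, old control 18.97% and old TSA 15.75%. This cut left 13908 regions in young control, 39238 in young TSA, 47136 in old control and 40262 in old TSA. It also dropped narrower young control calls, so a lacked region can hold one. The 65.8% therefore does not show a stronger lack among wide regions. Of the 10138, 29.9% overlapped young gained, 2.76% old gained and 4.06% old lost. In turn, 37.0% of the young gained list lay in the 10138, and 11.1% of them had a young control call of that width within 5 kb. With lists of about equal length there were 7566 young-control-lacking regions, and 45.1% of the shared regions were lacked. Of the 7566, 32.4% overlapped young gained, 2.45% old gained and 4.08% old lost, and 29.7% of the young gained list lay in them. The shares of all merged regions in the differential lists were not computed under any of the alternative settings. With a call counted only where at least 50% of the merged region was covered, young control lacked 62.8%. Of the regions it lacked, 20.1% overlapped young gained, and 42.3% of that list lay in them. A young control call lay inside or within 5 kb of 34.2% of them. With regions up to 500 bp apart merged, 53.5% were lacked, 2.58% overlapped old gained, 3.57% overlapped old lost and 23.2% had a young control call within 5 kb. With a margin of 1000 bp around the region, 51.6% were lacked and 38.0% of the young gained list lay in them. The other values, and all values over all chromosomes, stayed within the counting interval, or within 1.5 times the count. No paired analysis was possible because each group has 1 library, which also bars leaving out replicates. The unknown depth limits every statement on a missing call.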

Other observations

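On the X chromosome, which the selection left out, young control lacked 182 of the 253 regions called in the other 3 libraries, or 71.9% (66.0 to 77.4%), against 54.8% on the autosomes. Of the 182, 22 were in the young gained list, and the share over the 3258 merged regions of the X chromosome was not counted. Another 359 regions of the X chromosome were called in both old libraries and in neither young library. They were 66.4% of those without a young control call there, against 40.1% on the autosomes, so young TSA as well had fewer calls at these places on the X chromosome. The labels do not state the sex of the animals. On chromosome Y none of 12 regions called in the other 3 libraries was missing from young control.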
